A study of Rattus norvegicus with 4 samples.

Results

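The S phase and DNA replication genes described here are a list of 44 rat genes whose products license origins, open and copy the DNA, supply deoxynucleotides, start S phase or pack the new DNA. They were chosen by name, and their probes were found through the accession each probe carries. The genes and the grouping of replicates 1 and 3 and of 2 and 4 were chosen with earlier results of these data known. Of the 44 genes, 40 had at least 1 named probe (52 probes in all), out of 16581 genes with a named probe on the array. Mcm5, Rpa1, Uhrf1 and Chaf1a had none and are not analysed here. In the 4 cultures measured, 37 of the 40 genes were detected on every array, against 47.9% of all genes with a named probe. A range over 2-fold between the cultures was found in 3 of those 37, against 13.6% of all genes detected on every array. Replicates 1 and 3 both read lower than replicates 2 and 4 in 24 of the 37, against 47.2% of all such genes. Among the 24 were Mcm2, Mcm3, Mcm7, Gins2, Rrm1, Rrm2 and Tk1. Except for Gins2, these were in the brightest of 4 equal groups by mean level, where 70.3% of all such genes had this order. A dimmer probe of Rrm1 gave the reverse, as did a dimmer probe of Mcm3 that was detected on 2 arrays. The reverse order was found in 8 genes, against 34.5% of all such genes, with Ccne2, Cdc7, Rfc1, Slbp and Rpa3 as the widest.

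The cultures were NR8383, a line of rat alveolar macrophages that was started from lung lavage and kept in culture, here described as having gone through 20 passages. All 4 arrays belong to 1 group, cells exposed for 4 h to NM403, which is a type of multi-walled carbon nanotube, at 0.8 cm2/cm2. The cells had been seeded for 48 h in 25 cm2 flasks in medium with 15% serum, and 100 ng of RNA with an integrity number above 7.5 was labelled. The submitters' design text also names unexposed control cultures; these are not analysed here. A response to NM403 was therefore not tested, and the values below are levels and differences among 4 exposed cultures of 1 cell line, labelled as biological replicates. The arrays share a single slide. No p-value is given, and with 4 arrays the precision of each value is limited by their number. Of 19 macrophage markers with a named probe, 16 were detected on every array, including Cd68, Lyz2, Csf1r and Spi1; Cd163 was detected on 3 arrays and Marco and Adgre1 on 0. Markers of other lung cells were detected on every array for 1 of 16 in epithelium (Foxj1), 1 of 11 in fibroblasts (Dcn) and 2 of 11 in neutrophils (Camp and Lcn2). For lymphocytes it was 6 of 12 (Cd3d, Cd4, Lck, Pax5, Nkg7 and Gzmb), near the 47.9% of all genes with a named probe.

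DNA replication starts at origins that are licensed before S phase, when the origin recognition complex, Cdc6 and Cdt1 load the ring-shaped Mcm helicase. Kinases then recruit Cdc45 and the GINS complex, which turn the ring into a moving helicase, and primase, polymerases, the Pcna clamp and the clamp loader copy both strands. Many genes of this machinery are targets of E2F transcription factors, which cyclin E activity helps to release from the retinoblastoma protein at the start of S phase.

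Promoter sequences are shown first for 5 members, so that promoters with and without letters of E2F type can be read side by side in both orders of the arrays: Mcm2, Mcm7 and Gins2, which read lower on replicates 1 and 3, and Slbp and Rfc1, which read higher there. They were picked after their values and matches were known. Each sequence holds 300 bases on the strand of the gene, 250 before and 50 after its annotated start, from RefSeq on build GRCr8. Capitals mark letters of E2F type, defined as TTTCCCGC, TTTCGCGC, TTTGCCGC or TTTGGCGC on either strand.
Mcm2, chr4:122918045-122918344, minus strand: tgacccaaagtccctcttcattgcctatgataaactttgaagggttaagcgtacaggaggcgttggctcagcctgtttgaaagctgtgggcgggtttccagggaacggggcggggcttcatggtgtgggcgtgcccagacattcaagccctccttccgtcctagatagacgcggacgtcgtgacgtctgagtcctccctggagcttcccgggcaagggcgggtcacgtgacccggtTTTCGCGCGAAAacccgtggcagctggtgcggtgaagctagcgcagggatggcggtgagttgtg
Mcm7, chr12:22163129-22163428, minus strand: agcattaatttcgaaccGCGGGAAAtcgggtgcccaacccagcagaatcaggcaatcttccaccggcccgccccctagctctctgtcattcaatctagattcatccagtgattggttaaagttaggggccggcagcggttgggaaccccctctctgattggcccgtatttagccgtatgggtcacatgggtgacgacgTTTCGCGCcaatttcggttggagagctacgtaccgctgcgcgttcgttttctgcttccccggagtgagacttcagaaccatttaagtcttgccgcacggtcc
Gins2, chr19:65548003-65548302, minus strand: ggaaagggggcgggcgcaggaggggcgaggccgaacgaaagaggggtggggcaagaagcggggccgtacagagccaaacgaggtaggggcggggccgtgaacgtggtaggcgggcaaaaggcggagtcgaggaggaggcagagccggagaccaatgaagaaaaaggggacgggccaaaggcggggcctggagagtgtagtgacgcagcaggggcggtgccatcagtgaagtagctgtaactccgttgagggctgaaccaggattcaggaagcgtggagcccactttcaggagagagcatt
Slbp, chr14:81295998-81296297, plus strand: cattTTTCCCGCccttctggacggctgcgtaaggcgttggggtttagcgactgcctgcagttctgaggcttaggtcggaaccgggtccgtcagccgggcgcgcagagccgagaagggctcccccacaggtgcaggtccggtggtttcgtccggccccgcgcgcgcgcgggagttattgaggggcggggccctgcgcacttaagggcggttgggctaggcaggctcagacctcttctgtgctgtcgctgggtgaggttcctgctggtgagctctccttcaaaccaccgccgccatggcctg
Rfc1, chr14:43319748-43320047, plus strand: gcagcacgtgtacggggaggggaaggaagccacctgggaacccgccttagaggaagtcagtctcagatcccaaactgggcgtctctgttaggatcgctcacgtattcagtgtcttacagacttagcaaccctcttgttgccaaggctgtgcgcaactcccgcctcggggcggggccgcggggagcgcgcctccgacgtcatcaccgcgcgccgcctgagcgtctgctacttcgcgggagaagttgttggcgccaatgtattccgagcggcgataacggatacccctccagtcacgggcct
Positions are counted from the annotated start to the first base of a match, with -1 as the base before the start. In Mcm2, matches on opposite strands overlapped, at -14 and -10. In Mcm7 the matches began at -233 and -52, and in Slbp the single match began at -246. The promoters of Gins2, the widest of the genes low on replicates 1 and 3, and of Rfc1 and Cdc7, among the widest of the reverse order, held 0 matches, which says only that these letters are not in this window. A match is a description of letters and not a site of binding.

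Shorter stretches around a match, with up to 28 bases, show the same letters in other members. Here capitals mark a single match per line, and in Mcm6, Gins1 and Rfc3 another match runs into the lower case letters. The first 6 lines are from genes lower on replicates 1 and 3, and the last 3 from genes higher there.
Mcm3, chr9:30733735-30733762, minus strand: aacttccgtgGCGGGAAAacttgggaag
Mcm3, chr9:30733716-30733743, minus strand: cttgggaagtTTTCGCGCcagggaggag
Mcm6, chr13:42404474-42404501, minus strand: ggcgtctgctTTTGGCGCgaaattagcg
Gins1, chr3:160184885-160184912, plus strand: gttaagcctaTTTGGCGCcaaagagagg
Rfc3, chr12:5836555-5836582, plus strand: cgtcgcagccTTTCGCGCtcgcgggaaa
Tyms, chr9:120776103-120776130, minus strand: aggtgcgggtTTTGGCGCcgactacact
Gmnn, chr17:40729862-40729883, plus strand: ttcgggtcgtTTTGGCGCggtt
Gins3, chr19:9434698-9434725, minus strand: tgagtgaggcGCGGGAAAacgagtttga
Pole, chr12:52053647-52053674, minus strand: acatgagagcGCGCCAAAttttcccggg
These letters stood in the promoter of 16 of the 36 members with a RefSeq entry (44.4%), against 306 of 6660 genes detected on every array (4.59%) and 651 of 27457 genes in the whole promoter table (2.37%). A separate list of other replication genes held them in 18 of 46 (39.1%), and a list of mitosis genes in 1 of 37 (2.70%). The letters CCAAT, searched on both strands as well, stood in 23 of the 36 members (63.9%), in 15 of 46 other replication genes (32.6%), in 28 of 37 mitosis genes (75.7%), in 39.8% of genes detected on every array and in 39.6% of all genes. For GGGCGG, searched alike, the shares were 69.4% of members, 71.7% of other replication genes, 67.6% of mitosis genes, 63.5% of genes detected on every array and 36.0% of all genes. These shares carry no test.

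Levels are given on the log2 scale as the processed spot intensity of a gene's brightest probe minus the 75th percentile of detected probes on the same array, so that 0 is that percentile. A level can be compared between arrays for 1 gene but not between genes, since probes differ in how strongly they bind. A gene counted as detected where the scanner software called it well above background. By that rule 92.5% of the members with a probe were detected on every array, against 47.9% of all genes with a named probe. Replicates 1 to 4 detected 40, 38, 37 and 38 members. In cultured cells measured in bulk, fewer cells in S phase and less RNA per cell cannot be told apart.

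**Figure D1:**
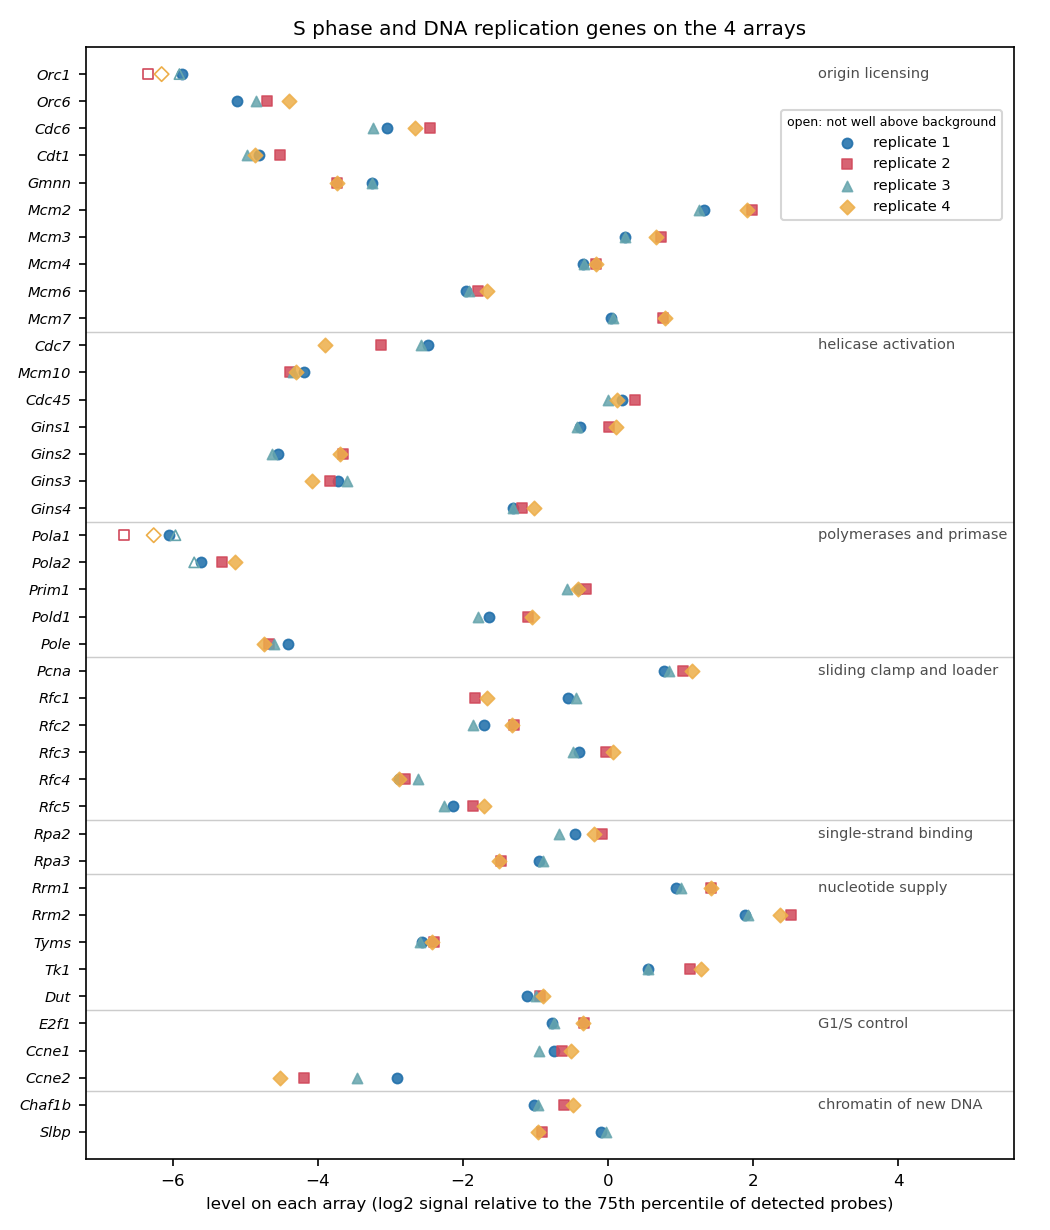
Level of each of the 40 genes with a probe (rows, by role) on the 4 arrays (points, log2 signal relative to the 75th percentile of detected probes); open points were not well above background. In most rows the points of replicates 1 and 3 lie together to the left of replicates 2 and 4, as for Mcm2 and Tk1, and in Rfc1, Ccne2, Cdc7 and Slbp to the right.

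Among the licensing genes, the 5 measured subunits of the Mcm2-7 helicase ring all read lower on replicates 1 and 3 than on replicates 2 and 4. So did 47.2% of all genes detected on every array. In the brightest of 4 equal groups by mean level, which holds Mcm2, Mcm3 and Mcm7, the share was 70.3%. Mcm2 read 1.32, 1.99, 1.25 and 1.91 on replicates 1 to 4 (SD 0.39, n = 4), a 1.67-fold range. Mcm7 read 0.04, 0.76, 0.06 and 0.78 (SD 0.42), a 1.68-fold range. In both genes the closest arrays on the other side were further away than the arrays of the same side: the smallest difference across was 0.59 for Mcm2 and 0.69 for Mcm7, while replicates 1 and 3 differed by 0.07 and 0.03. Mcm3 read 0.24, 0.74, 0.23 and 0.67, a 1.42-fold range in the same order. Mcm4 read -0.34, -0.17, -0.33 and -0.17, and Mcm6 read -1.95, -1.79, -1.92 and -1.66, so that the same order spanned only 1.13-fold and 1.22-fold there. By their brightest probes the 5 subunits thus kept 1 order with unequal sizes of difference, while a dimmer probe of Mcm4 gave the reverse. A dimmer probe of Mcm3 was detected on replicates 1 and 3 alone, the arrays where its brightest probe read low.

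The factors that load the ring were less alike. Cdc6, which joins the origin recognition complex and recruits the helicase, read -3.05, -2.45, -3.24 and -2.66 on replicates 1 to 4 over a 1.73-fold range. Orc6, a small subunit of the origin recognition complex, read -5.11, -4.71, -4.85 and -4.40, a 1.64-fold range. Both were lower on replicates 1 and 3, but in Orc6 the closest arrays were replicates 2 and 3. Cdt1, which delivers the Mcm ring to the origin, read -4.81, -4.53, -4.97 and -4.87, with replicate 2 high and no clean order. Gmnn, which encodes geminin, the protein that binds and blocks Cdt1 once S phase has begun, went the other way at -3.26, -3.74, -3.25 and -3.74, a 1.40-fold range. Replicates 1 and 3 differed by 0.012 in Gmnn and replicates 2 and 4 by 0.0015. Orc1, the largest subunit of the origin recognition complex, was well above background on replicate 1 alone, where it read -5.88; on the other arrays it has only an upper bound, and no fold is given.

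Helicase activation held both orders. Cdc7, the kinase that phosphorylates the loaded Mcm ring, read -2.48, -3.12, -2.58 and -3.90 (SD 0.65), a 2.68-fold range. It was higher on replicates 1 and 3, and replicate 4 was the lowest, 0.78 below replicate 2. Cdc45 read 0.19, 0.37, -0.01 and 0.12, and Mcm10, which helps to activate the helicase, read -4.19, -4.38, -4.34 and -4.30. Neither showed a clean order, and Mcm10 had the smallest SD of the 37 members, 0.083. The GINS complex has 4 subunits that work as 1 unit, and their probes did not read alike. Gins1 read -0.39, 0.02, -0.42 and 0.11 (1.45-fold), Gins2 read -4.55, -3.65, -4.64 and -3.69 (1.99-fold, SD 0.54), and Gins4 read -1.30, -1.19, -1.31 and -1.02 (1.23-fold), all lower on replicates 1 and 3. Gins3 read -3.72, -3.83, -3.60 and -4.09 (1.40-fold), higher on replicates 1 and 3, though replicates 1 and 2 were its closest arrays.

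Of the genes for polymerases and primase, 3 of 5 were detected on every array. Pold1, the catalytic subunit of polymerase delta, read -1.64, -1.10, -1.79 and -1.05 (SD 0.37), a 1.67-fold range with replicates 1 and 3 low. Pole, the catalytic subunit of polymerase epsilon, read -4.41, -4.68, -4.60 and -4.75, a 1.26-fold range with replicate 1 high. Prim1, the catalytic subunit of primase, read -0.39, -0.31, -0.56 and -0.41, with no clean order. Polymerase alpha, which extends the primers, lay at the limit of detection. Its subunit Pola1 was detected on replicate 1 alone, at -6.05, and Pola2 on replicates 1, 2 and 4, at -5.61, -5.32 and -5.14. Of all probes called well above background, the dimmest 1% lay under -6.01, -5.88, -5.70 and -5.49 on replicates 1 to 4, which is near or above the levels of Pola1.

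Pcna encodes the ring that holds polymerases on DNA, and replication factor C, with 5 subunits, opens it. Pcna read 0.77, 1.03, 0.84 and 1.16 on replicates 1 to 4 over a 1.31-fold range with replicates 1 and 3 low. Rfc2, Rfc3 and Rfc5 shared that order with ranges of 1.47, 1.47 and 1.46-fold; Rfc3, for example, read -0.40, -0.02, -0.49 and 0.06. Rfc1, the largest subunit, stood against them at -0.55, -1.84, -0.44 and -1.67 (SD 0.73), a 2.64-fold range and the largest SD among the members. Its replicates 1 and 3 were at least 1.12 above replicates 2 and 4. Rfc4 read -2.88, -2.80, -2.62 and -2.89, where only replicate 3 stood apart.

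Replication protein A covers single-stranded DNA, and its measured subunits took opposite orders. Rpa2 read -0.46, -0.08, -0.67 and -0.19, a 1.51-fold range, lower on replicates 1 and 3. Rpa3 read -0.95, -1.47, -0.89 and -1.51, a 1.53-fold range, higher on replicates 1 and 3.

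All 5 genes of deoxynucleotide supply read lower on replicates 1 and 3 by their brightest probes, though a dimmer probe of Rrm1 gave the reverse. Of all genes detected on every array, 47.2% read lower on replicates 1 and 3. In the brightest of 4 equal groups by mean level, which holds Rrm1, Rrm2 and Tk1, the share was 70.3%. Rrm2, the regulated small subunit of ribonucleotide reductase, read 1.88, 2.53, 1.93 and 2.37 (SD 0.32), a 1.57-fold range, and Rrm1, its large subunit, read 0.94, 1.42, 1.001 and 1.41, a 1.39-fold range. Tk1, thymidine kinase of the cytosol, read 0.56, 1.13, 0.55 and 1.28 (SD 0.38), a 1.66-fold range. The smallest difference between an array of replicates 1 and 3 and an array of replicates 2 and 4 was 0.44 in Rrm2, 0.41 in Rrm1 and 0.57 in Tk1, so these did not overlap. Tyms, thymidylate synthase, read -2.57, -2.40, -2.59 and -2.42, and Dut, which removes dUTP, read -1.12, -0.93, -0.998 and -0.90; both kept the order over ranges of only 1.14 and 1.17-fold.

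At the entry to S phase, E2f1, a transcription factor that activates many replication genes, read -0.77, -0.33, -0.74 and -0.35 on replicates 1 to 4 (SD 0.24), a 1.36-fold range. The cyclins E, partners of Cdk2, split. Ccne1 read -0.74, -0.63, -0.96 and -0.52, lower on replicates 1 and 3 over a 1.36-fold range, though replicates 1 and 2 were its closest arrays. Ccne2 read -2.92, -4.19, -3.46 and -4.53 (SD 0.73), higher on replicates 1 and 3, and its 3.06-fold range was the widest of all members. Replicates 1 and 3 also differed from each other by 0.55 in Ccne2, more than in any other member.

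Of the genes that pack new DNA, Chaf1b, a subunit of the chromatin assembly factor that deposits histones behind the fork, read -1.01, -0.61, -0.96 and -0.48, a 1.45-fold range. Slbp, which binds the stem-loop of replication-dependent histone messenger RNAs, read -0.10, -0.91, -0.03 and -0.96 (SD 0.51), a 1.91-fold range. Chaf1b was lower and Slbp higher on replicates 1 and 3, and the smallest difference across was 0.81 for Slbp.

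Counted by role, the order with replicates 1 and 3 low held in 7 of 9 licensing genes, 3 of 7 in helicase activation, 1 of 3 polymerase and primase genes, 4 of 6 clamp and loader genes, 1 of 2 subunits of replication protein A, 5 of 5 nucleotide genes, 2 of 3 genes of S phase entry and 1 of 2 chromatin genes. In all it held in 24 of 37 members (64.9%), against 47.2% of the 7937 genes whose brightest probe was detected on every array. The reverse order held in 8 members (21.6%), namely Ccne2, Cdc7, Gins3, Gmnn, Pole, Rfc1, Rpa3 and Slbp, against 34.5% of all genes. The other 5 members were Cdc45, Cdt1, Mcm10, Prim1 and Rfc4. The median member deviated from its own mean by -0.12, 0.11, -0.18 and 0.19 on replicates 1 to 4, and the median of all genes by -0.04, 0.04, -0.05 and 0.05. Without replicate 4, the median deviation of members on replicate 1 was -0.07, and without replicate 3 that on replicate 2 was 0.06. The share of spots well above background ran the other way, higher on replicates 1 and 3 (50.8% and 49.6%) than on replicates 2 and 4 (47.5% and 45.9%), and its part in the result was not tested.

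**Figure D2:**
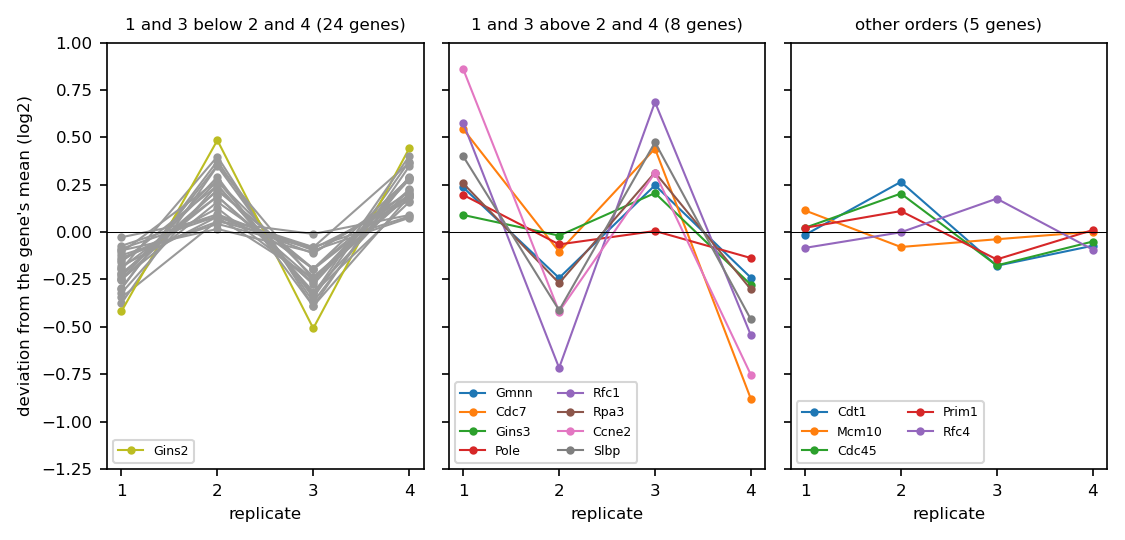
Deviation of each of the 37 detected genes from its own mean (y axis, log2) on the 4 replicates (x axis), 1 line per gene, in 3 panels by the order of the arrays; lines join the values of a gene and replicates have no order. Gins2 deviates most among the 24 genes of the left panel, and Cdc7, Ccne2, Rfc1 and Slbp among the 8 of the middle panel.

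The scaling of the arrays bears on these counts. Scaled on the 75th percentile of all non-control probes, which moved the median of all genes to -0.21, 0.23, -0.25 and 0.23 on replicates 1 to 4, the order with replicates 1 and 3 low held in 30 members and the reverse in 6, against 69.9% and 19.0% of all genes. Scaled on the array median, which moved the median of all genes to -0.11, 0.31, -0.28 and 0.08, the counts were 27 and 5, against 60.5% and 18.1%. Each of these scalings shifts all genes of an array by 1 value, so the gap in median deviation between members and all genes stays the same. The counts of orders, and their distance from the shares of all genes, do change with the scaling. Over 7 settings of scaling, background correction, averaging of probes and outlier removal, 19 members kept the order with replicates 1 and 3 low, and Ccne2, Cdc7, Rfc1, Rpa3 and Slbp kept the reverse. The share of all genes that kept an order is not given here, so these counts have no background beside them. All of these settings use the same 4 arrays. Pole took both orders within these 7 settings, which do not include the dimmest probe; with that probe Mcm4 and Rrm1 took the reverse order.

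Spread over the cultures was close to that of other genes. The median SD was 0.27 over the 37 members and 0.23 over all 7937 genes, and the median range was 1.45-fold and 1.40-fold. A range over 2-fold occurred in 3 members (8.11%), against 13.6% of all genes. Those 3, Ccne2, Cdc7 and Rfc1, all read higher on replicates 1 and 3, as did 865 of the 1079 genes with such a range (80.2%); only 87 of the 1079 (8.06%) had the opposite order.

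Replicates 1 and 3 agreed closely in the members, and so did replicates 2 and 4. These pairs were named from earlier results of these data, so their agreement is a description and no test. The median difference between arrays over the 37 members was 0.089 on the log2 scale between replicates 1 and 3 and 0.095 between replicates 2 and 4. In the other 4 pairs it was 0.40 (replicates 1 and 2), 0.43 (1 and 4), 0.44 (2 and 3) and 0.48 (3 and 4). All genes gave 0.073, 0.094, 0.36, 0.38, 0.36 and 0.38 in the same sequence of pairs. The closest pair of arrays was 1 and 3 or 2 and 4 in 28 of the 37 members (75.7%), 14 for each pair, against 76.9% of all genes, so the share of members was near the background. Across the 37 genes, which are not independent, the Pearson correlation was 0.997 for replicates 1 and 3, 0.996 for replicates 2 and 4, and 0.959 to 0.967 for the other pairs.

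**Figure D3:**
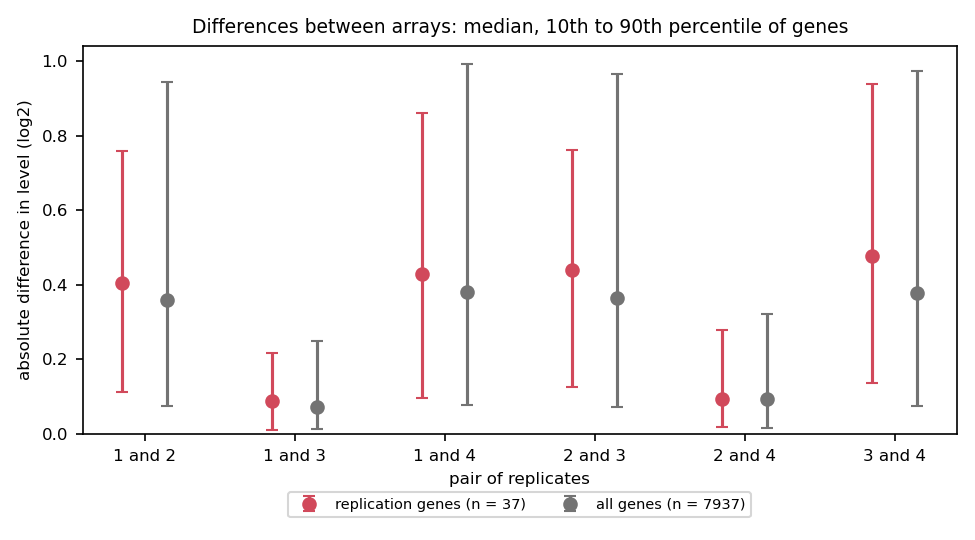
Absolute difference in level (log2, y axis) between each of the 6 pairs of arrays (x axis); points are medians and bars run from the 10th to the 90th percentile of the 37 replication genes (red) and of all 7937 detected genes (grey). Replicates 1 and 3 and replicates 2 and 4 have medians near 0.09 in the replication genes, against 0.40 or more in the other pairs.

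Repeated spots give the error of measurement within an array for 5 members. The probes of Mcm2, Mcm3, Mcm7, Rrm1 and Rrm2 used here had 8 to 10 usable spots per array, whose SD lay between 0.017 (Mcm2) and 0.099 (Rrm2), while the SD between arrays was 0.26 to 0.42. In Mcm7 the difference was 0.029 between replicates 1 and 3, 1.05 times the standard error of the spots, and 0.024 between replicates 2 and 4, 0.96 times. Between replicates 1 and 2 it was 0.72, 28.9 times that error. Mcm2 differed by 4.67 standard errors between replicates 1 and 3 and by 4.00 between replicates 2 and 4; its remaining pairs differed by 34.7 to 43.9 standard errors. Arrays on 1 side were thus not always equal within spot error, but differed far less than arrays on different sides. Spots of 1 array share its labelling and hybridisation, so this error leaves out those steps.

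Different probes of a gene did not always give the same order. Of 10 members with several probes, 7 had more than 1 detected on every array, and all such probes agreed in order for Mcm2, Rpa3, Rrm2, Tk1 and Dut. They were opposite in Mcm4, where the dimmest of 3 probes read -2.86, -3.18, -3.02 and -4.02 on replicates 1 to 4, and in Rrm1, where the second read -4.06, -4.34, -4.16 and -4.62. In Mcm3 the second probe was detected on replicates 1 and 3 alone, at -5.35 and -5.48, and read lower on the other arrays, opposite to the brightest probe. The other probes of Gins2 and Pole were detected on 0 arrays. With the dimmest probe that was detected on every array in place of the brightest, 22 members had replicates 1 and 3 low and 10 had them high. The shares of all genes in that setting were 45.7% low and 35.2% high.

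The order of the arrays also varied with how bright a gene was. When all 7937 genes were split by mean level into 4 equal groups, replicates 1 and 3 were low in 27.7% of the dimmest group, 39.2% of the next, 51.8% of the one above and 70.3% of the brightest. Members followed with 2 of 8, 5 of 7, 10 of 15 and 7 of 7. The reverse order was found in 4, 1, 3 and 0 members, against 43.1%, 42.7%, 33.6% and 18.7% of all genes. In the brightest group, which holds Mcm2, Mcm3, Mcm7, Pcna, Rrm1, Rrm2 and Tk1, the median member deviated by -0.29, 0.27, -0.25 and 0.22 on replicates 1 to 4 and the median of all genes by -0.16, 0.16, -0.15 and 0.15. The part of brightness in the members' order was not tested.

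**Figure D4:**
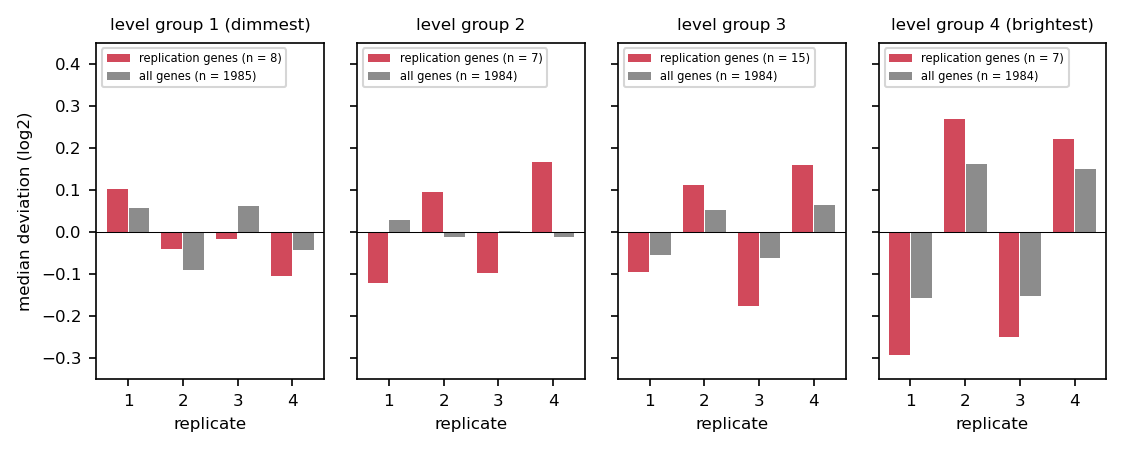
Median deviation from the gene's own mean (y axis, log2) on replicates 1 to 4 (x axis) in 4 equal groups of mean level, for the replication genes (red) and all genes detected on every array (grey). In the brightest group both sets read low on replicates 1 and 3 and high on replicates 2 and 4, the 7 replication genes by -0.29, 0.27, -0.25 and 0.22.

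Other genes of the pathway were on a separate list of 53 replication genes. Of the 47 with a named probe, 36 were detected on every array, against 47.9% of all genes with a named probe. Replicates 1 and 3 were low in 18 of the 36 (50.0%) and high in 12 (33.3%), against 47.2% and 34.5% of all genes. Their median SD was 0.24. Their median deviations were -0.04, 0.04, -0.04 and 0.07 on replicates 1 to 4, nearer to all genes than to the members. The widest ranges were in Mcm8 (3.397-fold), Dbf4 (2.45-fold), Tipin (2.36-fold), Orc3 (2.33-fold), Orc4 (2.31-fold) and Usp1 (2.27-fold), all higher on replicates 1 and 3. That order also held in 80.2% of all genes with a range over 2-fold. Dbf4, the activating partner of the kinase Cdc7, read -0.44, -1.50, -0.20 and -1.33, high on the same arrays as Cdc7. Orc3 and Orc4, subunits of the origin recognition complex, thus stood against Orc6.

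Among 34 genes controlling passage into S phase, 23 of 29 were detected on every array, against 47.9% of all genes with a named probe. Replicates 1 and 3 were low in 8 (34.8%) and high in 12 (52.2%), against 47.2% and 34.5% of all genes. The 5 with a range over 2-fold, Fbxw7 (2.38-fold), Tfdp2 (2.31-fold), Rb1 (2.13-fold), Cdkn1b (2.04-fold) and Lin54 (2.02-fold), all read higher on replicates 1 and 3. So did 80.2% of all genes with such a range. Fbxw7 encodes the ubiquitin ligase subunit that marks cyclin E for destruction, Cdkn1b an inhibitor of Cdk2, and Rb1 the retinoblastoma protein. Cdkn1a, another Cdk2 inhibitor on this list, went the other way at 1.98, 2.39, 1.93 and 2.49 on replicates 1 to 4. Of the D-type cyclins, Ccnd1 and Ccnd2 read higher on replicates 1 and 3 and Ccnd3 lower. In Ccnd3, though, replicates 1 and 4 differed by only 0.0075. All 35 mitosis genes with a probe were detected on every array, against 47.9% of all genes with a named probe. Replicates 1 and 3 were low in 15 of the 35 mitosis genes (42.9%) and high in 17 (48.6%). Their median deviations were 0.04, -0.00, 0.01 and -0.04 on replicates 1 to 4, and their widest ranges were in Smc2 (5.03-fold), Cenpf (4.97-fold), Mki67 (3.11-fold), Ndc80 (2.35-fold), Bub1 (2.23-fold) and Smc4 (2.12-fold), again higher on replicates 1 and 3. The difference between these lists and the members was not tested.

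Promoters with E2F-type letters were found among members of both orders. Of the 13 detected members with E2F-type letters, replicates 1 and 3 were low in 8, high in 4 (Gins3, Gmnn, Pole and Slbp) and neither in 1 (Cdt1). The 17 with a promoter entry but no such letters gave 11, 2 and 4, and the 7 with no entry gave 5, 2 and 0. Over all genes with the letters, 139 of 306 had replicates 1 and 3 low and 110 had them high. Over all genes with a promoter entry but no such letters, 3038 of 6354 had them low and 2191 had them high. No test was made of these counts.

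**Figure D5:**
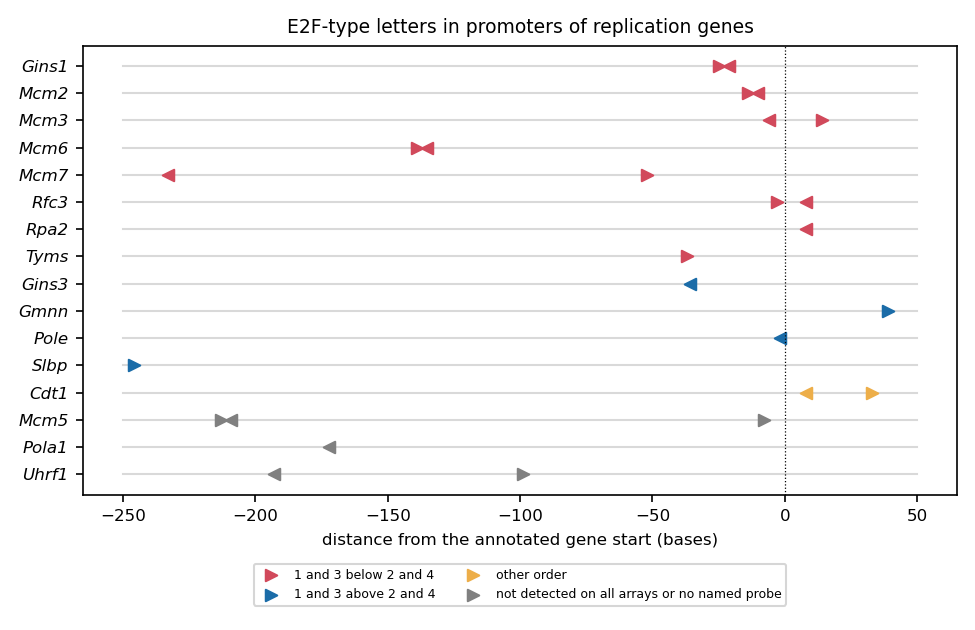
Position of E2F-type letters (triangles, first base of the match) relative to the annotated gene start (x axis, bases) in the 16 replication genes that hold them; triangles that point right lie on the strand of the gene and those that point left on the other strand, and colours give the order of the arrays. Matches lie from -246 in Slbp to 39 in Gmnn, with those of Mcm2 at -14 and -10 and that of Pole at -2.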

How the data were processed

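The deposited values are the intensity of each spot in 1 colour (Cy3). The submitters' processing notes name Agilent Feature Extraction, version 11.0.1.1. Its processed intensity had the background taken off and spatial trends removed array by array, and arrays were not normalized to each other, per the file headers, which name rat build rn4. Per the file headers, 2 of 11 quality measures, both on negative controls, were out of range on replicate 4 and 0 on the others. The 4 arrays formed 1 group, so no test between groups was run.

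Control spots and outlier spots (623 to 1016 per array) were left out, and 0 spots were saturated. Spots of a probe were averaged as log2 intensity and each array's 75th percentile over the probes detected on all arrays (15578 of 45598 non-control probes, 34.2%) was subtracted. This hides a change in total messenger RNA. A probe counted as detected where more than 50% of its spots were well above background. Accessions were matched without version to the RefSeq table of GRCr8: 21109 probes (46.3%) had 1 symbol, 0 several and 24489 none, and only names were taken from it. A gene took its brightest probe by mean level. Low and high order means that replicates 1 and 3 both lay below, or both above, replicates 2 and 4. Promoters were searched for exact letters.

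Members, gene lists, settings and the pairing of replicates were chosen with earlier results of these data known. Named were all members and the 6 widest genes past a 2-fold range in each other pathway list. Up to 4 detected markers were named per cell type, and all 6 for lymphocytes. Cdkn1a, Ccnd1, Ccnd2 and Ccnd3 were named after their values were seen. Alternatives were other detection rules, scalings, quantile normalization, normexp (limma 3.58.1 in R 4.3.3, offset 50, on the median spot intensity), other probes, outlier spots kept, genes above the median level and leaving out each replicate. The dimmest probe was added after the data were seen. The rest ran in Python 3.11.15 with pandas 2.3.3 and numpy 2.4.6. The counting of orders was tested on simulated data.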

Additional observations from a re-analysis of the deposited data

How the results depend on the processing

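No paired analysis was possible because all 4 arrays belong to 1 group. The median level of the members, -1.12, is set by the zero point of the scale and by the probe: it was 2.24 with scaling on the 75th percentile of all non-control probes, 5.98 with scaling on the array median, -0.999 with normexp, -1.40 with the mean over probes and -1.60 with the dimmest probe, and -1.22 to -1.01 when 1 replicate was left out. Scaling on all non-control probes gave median deviations of 0.30, -0.37 and 0.37 on replicates 2, 3 and 4, and scaling on the array median gave 0.38 and -0.40 on replicates 2 and 3, which moves with the median of all genes. The count with replicates 1 and 3 high was 5 with scaling on the array median and 3 of 22 among members above the median level, where fewer genes were counted. The count with them low ranged from 21 (normexp) to 30 (scaling on all non-control probes) and was 17 of those 22. Of all genes, 43.4% had the low order with normexp and 69.9% with scaling on all non-control probes. Above the median level, 61.0% of all genes had the low order and 26.2% the high order. With scaling on the array median, 18.1% of all genes had the high order. When 1 replicate was left out, the median SD was 0.25 to 0.27 and the median deviations were -0.18 to -0.07 on replicate 1, 0.06 to 0.18 on replicate 2, -0.18 to -0.11 on replicate 3 and 0.11 to 0.22 on replicate 4; counts of orders need all 4 arrays. Detection on every array ranged from 34 (all probes of a gene) to 40 members over its alternatives, and from 37 to 38 when 1 replicate was left out. Of 407 gene levels compared with their own value, 311 stayed within 1 SD, and 96 moved, 37 of them under each scaling with another zero point. Signal near background limits Orc1, Pola1 and Pola2.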
